A study of Rattus norvegicus with 9 samples.

Results

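Hcn2, Hcn3, Hcn4, Asic1, Asic2, Asic3, Asic4, Piezo1 and Piezo2 are genes for 3 families of ion channels that pass cations in answer to voltage and cyclic nucleotides, to protons, or to stretch of the membrane. They were chosen by family membership, as the loci of the deposited table with those 9 gene names, a rule that uses no measured value. All 9 names were found, each at 1 of the 34890 loci in the table. Lumbar spinal cord RNA (segments L3-L6, the operated side) was sequenced from male wild-type Sprague Dawley rats in 3 groups of 3 samples, which the labels call biological replicates. JA was sham-operated and given normal saline by mouth. SNI had a spared nerve injury, in which the sciatic nerve keeps its sural branch while its other main branches are tied and cut, and was given saline by mouth. PLM had the same injury and was given paeoniflorin at 20.65 mg/mL together with liquiritin by mouth, for which the labels of replicates 1, 2 and 3 read 3.98, 3.99 and 3.100 mg/mL. The methods state a single dose for the whole PLM group, equal to the label of replicate 1, so the labels are no evidence that the doses differed. Dosing lasted 21 days in all groups. There was no sham-operated group given the drugs, so SNI versus JA compares injury with sham, PLM versus SNI compares drugs with saline in injured rats, and PLM versus JA differs in both.

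HCN channels open when the membrane hyperpolarises, are shifted by cyclic AMP, and carry the pacemaker current that sets resting potential and repetitive firing. ASIC channels are trimers of the epithelial sodium channel superfamily that open on extracellular protons, and in the dorsal horn and in sensory neurons they are studied for their part in pain and in central sensitisation. Piezo1 and Piezo2 are very large trimeric channels opened by membrane tension. Piezo2 is the main touch and proprioception channel of sensory ganglion neurons, while Piezo1 is widely used by endothelial and other non-neuronal cells.

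As examples, the 250 bases before a RefSeq gene start are printed for Hcn2, the most abundant gene of the set, and for Asic3. Both annotated starts are printed for Asic2. They come from RefSeq's promoter table for the rat assembly GRCr8, in which 5 of the 9 genes had an entry, and each reads 5′ to 3′ on the gene's own strand, up to the base before the start. Capitals mark a GC box (GGGCGG, or CCGCCC on the other strand) or a TATA match (TATAAA, or TTTATA on the other strand).
Hcn2, chr7:10639458-10639707, minus strand: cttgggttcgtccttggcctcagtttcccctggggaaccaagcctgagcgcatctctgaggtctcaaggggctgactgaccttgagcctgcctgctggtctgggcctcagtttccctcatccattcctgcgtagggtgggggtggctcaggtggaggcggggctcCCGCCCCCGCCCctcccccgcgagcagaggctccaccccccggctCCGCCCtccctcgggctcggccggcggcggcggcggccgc
Asic3, chr4:11657368-11657617, minus strand: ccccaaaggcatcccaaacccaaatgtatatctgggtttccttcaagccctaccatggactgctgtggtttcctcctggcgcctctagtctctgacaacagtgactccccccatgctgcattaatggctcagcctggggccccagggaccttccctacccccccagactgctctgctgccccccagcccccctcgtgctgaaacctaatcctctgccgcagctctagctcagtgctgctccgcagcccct
Asic2, chr10:67438238-67438487, minus strand: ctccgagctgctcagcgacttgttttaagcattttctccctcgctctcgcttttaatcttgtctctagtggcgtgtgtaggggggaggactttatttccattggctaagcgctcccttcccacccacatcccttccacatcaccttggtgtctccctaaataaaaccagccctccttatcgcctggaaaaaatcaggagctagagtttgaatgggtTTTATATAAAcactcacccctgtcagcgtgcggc
Asic2, chr10:66636062-66636311, minus strand: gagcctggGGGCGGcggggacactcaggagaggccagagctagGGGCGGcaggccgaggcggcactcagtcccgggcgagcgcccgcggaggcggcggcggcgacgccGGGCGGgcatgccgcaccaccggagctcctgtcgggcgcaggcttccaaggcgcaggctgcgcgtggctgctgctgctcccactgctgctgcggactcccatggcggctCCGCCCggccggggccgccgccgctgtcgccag
The Hcn2 stretch is 71.6% G and C, holds 18 CpG dinucleotides and has 3 GC boxes. The Asic3 stretch is 60.4% G and C with 4 CpG dinucleotides and no match to either motif. That of Piezo2, a scarcer gene whose stretch is not printed, is 66.8% G and C with 19 CpG dinucleotides and 1 GC box. The median over all 33469 promoters of the table is 51.2% G and C and 5 CpG dinucleotides. The first Asic2 start, at 49.6% G and C with 9 CpG dinucleotides, has overlapping TATA matches that begin 34 bases (TTTATA) and 30 bases (TATAAA) before the start. The second Asic2 start, at 78.8% G and C with 33 CpG dinucleotides, has 4 GC boxes. A GC box occurs in 30.5% of all promoters and a TATA match in 12.9%, each counted on both strands. The cyclic AMP response element TGACGTCA, found in 1.6% of promoters, and the repressor element core TTCAGCACC, found in 0.3%, had no match in the stretches shown. Expression is given for 1 Asic2 locus, so RNA from the 2 starts was not separated.

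Values are TPM (transcript abundance corrected for gene length, with the same total in each sample), so that levels can be compared between genes. Read depth cannot be read from such values and is unknown here. Markers of neurons, astrocytes and oligodendrocytes were present, as the label calls for, with all 16, 12 and 10 of their loci at a mean of at least 1 TPM. Most genes shifted together between the groups, with 85% of all genes tested below 0 in PLM versus SNI, 23.6% in SNI versus JA and 71.2% in PLM versus JA. The median gene differed by -0.21 on the log2 scale in PLM versus SNI, by 0.12 in SNI versus JA and by -0.10 in PLM versus JA. The 13 mitochondrial protein genes took 23.7% to 26.1% of all TPM in SNI, 31.3% to 32.8% in PLM and 25.3% to 32.8% in JA, and their part in that shift was not tested beyond the rescaled values given with the other alternatives. Each comparison is therefore given on the deposited values and again with every sample centred on its median log2 value. Fold changes on the log2(TPM + 1) scale understate the change of a gene near or below 1 TPM.

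Hcn2 was by far the most abundant of the 9 genes, with a mean of 177 TPM ± 27.98 (SD, n = 9), and only 621 of the 34890 loci had a higher mean. Asic1 followed at 16.1 TPM ± 2.55, then Asic2 at 6.80 TPM ± 1.49 and Piezo1 at 3.85 TPM ± 0.594. Hcn2 exceeded Asic1 by 10.99 times, Asic1 exceeded Asic2 by 2.37 times and Asic2 exceeded Piezo1 by 1.77 times, and in each of these steps the ranges over the 9 samples did not meet. Asic4, at 3.36 TPM ± 0.527, was not set apart from Piezo1, which was the higher of the pair in 7 of 9 samples. Hcn4 lay at 2.37 TPM ± 0.379 and Hcn3 at 1.46 TPM ± 0.370. The ranges of Asic4 and Hcn4 overlapped, as did those of Hcn4 and Hcn3, although within each of the 9 samples Asic4 was above Hcn4 and Hcn4 above Hcn3. Asic3, at 0.249 TPM ± 0.142, and Piezo2, at 0.199 TPM ± 0.0812, were the lowest, their ranges overlapped, and Asic3 was the higher in 6 of 9 samples. These 2 genes had a mean below 1 TPM, the minimum for the fits over all genes, so 7 of the 9 genes entered those fits.

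**Figure D1:**
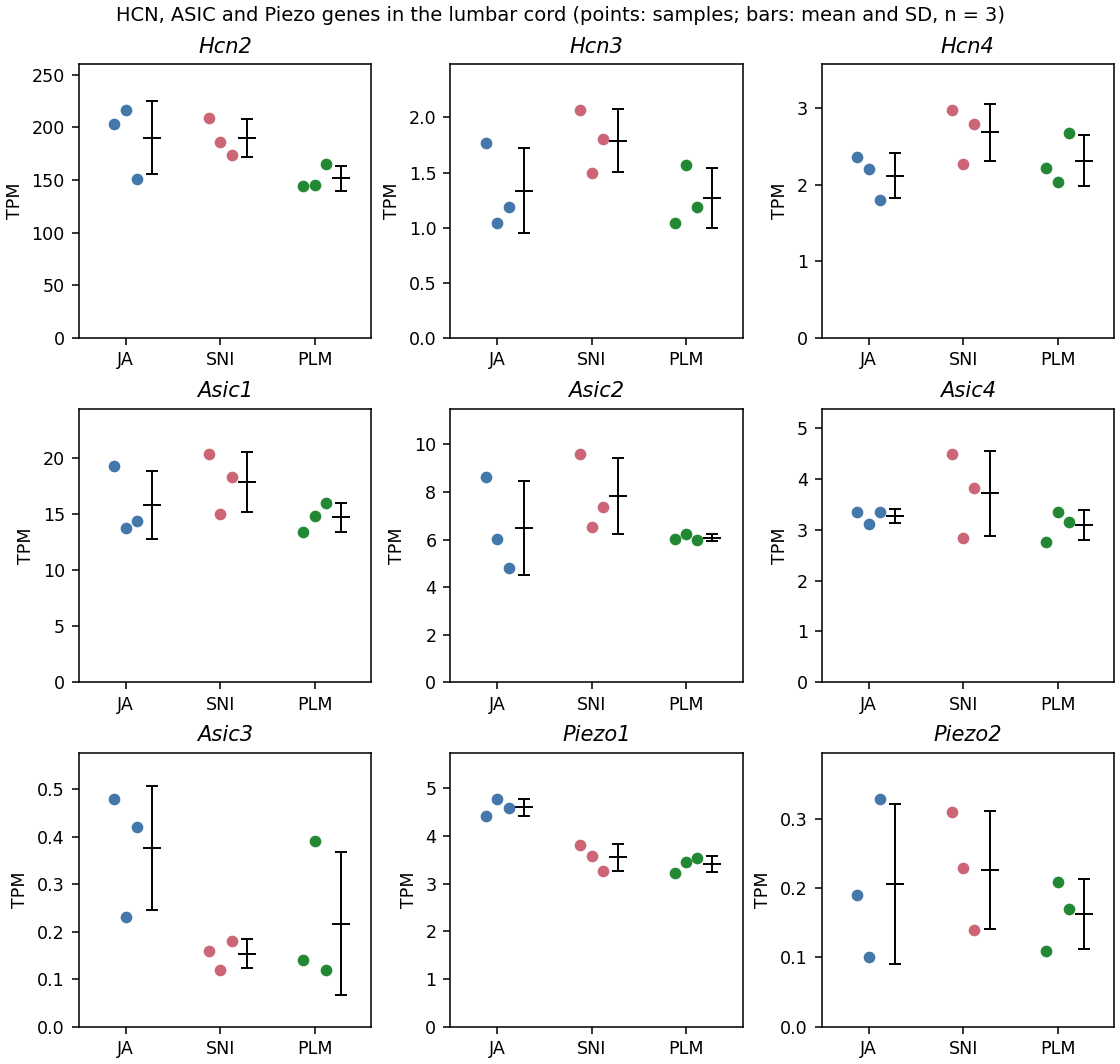
TPM of each of the 9 genes (vertical axis, from 0, with its own range in each panel) in the 3 samples of JA, SNI and PLM. Points are samples and bars the mean and SD (n = 3). The 3 JA samples of Piezo1, at 4.42 to 4.78 TPM, sit above all 6 samples of injured rats, which reach 3.81 TPM at most, while the groups of most other genes overlap.

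None of the 7 genes tested passed an adjusted p-value under 0.05 in any of the 3 comparisons, on deposited or on median-centred values (limma, Benjamini-Hochberg over all genes tested). In PLM versus SNI 0 of 7 passed on deposited values, where 13.9% of the 15474 genes tested did, and the smallest adjusted p was that of Hcn2 (0.0612). That share rests on all 6 samples: the 2148 genes called became 293, 1494 and 607 without SNI replicate 1, 2 and 3, and 315, 275 and 700 without PLM replicate 1, 2 and 3. In SNI versus JA 0 of 7 passed, where 0% of 15557 genes did. In PLM versus JA 0 of 7 passed, where 0.0195% of 15349 genes did. On median-centred values the shares of all genes were 0.814%, 0% and 0.013% in the same order. At an unadjusted p under 0.05, 1 of the 7 passed on deposited values in each comparison: Hcn2 in PLM versus SNI, where 37.1% of genes passed, and Piezo1 in SNI versus JA and in PLM versus JA, where 7.1% and 11.8% did. On median-centred values Piezo1 in SNI versus JA was the only one, where 4.83% of genes passed. No gene of the 7 reached the thresholds in the study's methods, an unadjusted p under 0.05 with an absolute log2 fold change above 1, which 1.65%, 0.688% and 0.938% of genes passed. A test for any difference among the 3 groups (limma's F-test) also passed 0 of 7, against 0.0194% of 15503 genes, with Piezo1 lowest at an adjusted p of 0.136.

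The 95% intervals bound what these samples could have held. On deposited values the 7 intervals ran from -0.69 to 0.19 in PLM versus SNI, from -0.57 to 0.77 in SNI versus JA and from -0.66 to 0.44 in PLM versus JA, so none of the 21 reached a log2 fold change of 1 in either direction on this scale. With a pseudocount of 0.1 in place of 1, the intervals of Hcn3 in PLM versus SNI (-1.09 to 0.14) and in SNI versus JA (-0.28 to 1.13) did. The median of the 7 genes was -0.26 in PLM versus SNI, beside -0.21 for all genes tested, 0.17 beside 0.12 in SNI versus JA, and -0.07 beside -0.10 in PLM versus JA. All 7 were below 0 in PLM versus SNI, as were 85% of all genes. With median-centred values of that comparison 4 of the 7 were below 0, beside 42.4% of all genes, and the median was -0.01. Its centred intervals ran from -0.42 to 0.41. On deposited values, intervals of several genes reached below -0.5 in PLM versus SNI and above 0.5 in SNI versus JA. Differences of that size in those directions lie within what the spread between samples allows.

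**Figure D2:**
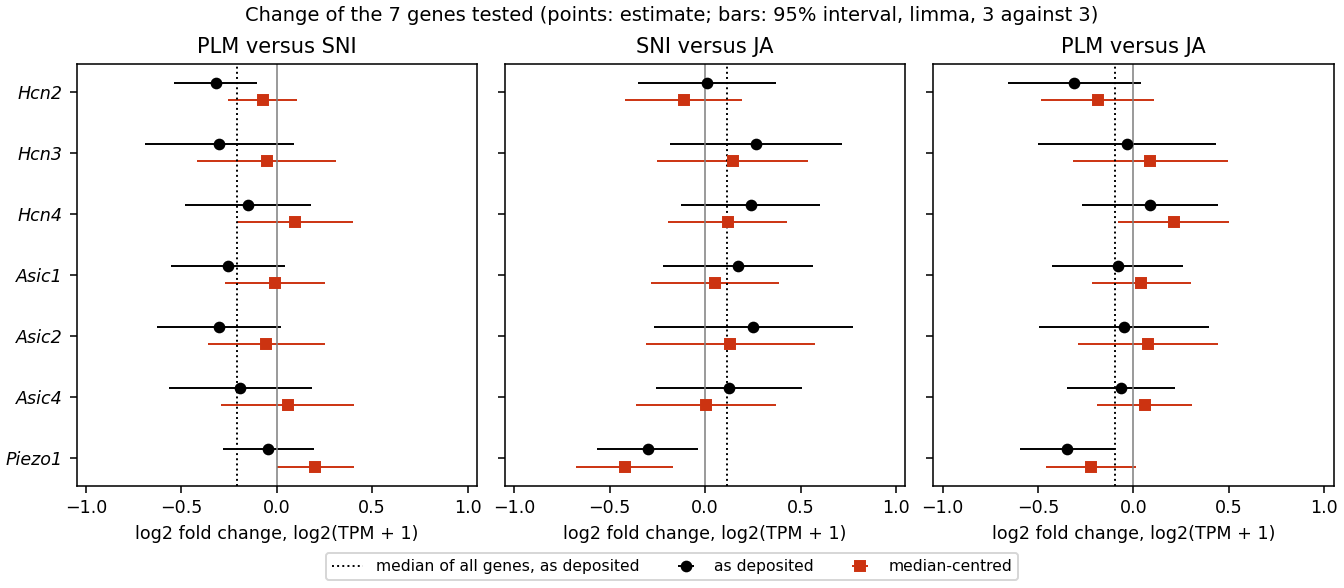
Log2 fold change of the 7 genes tested (horizontal axis, on log2(TPM + 1)) in 3 comparisons of 3 against 3 samples, on deposited values (black circles) and median-centred values (red squares). Bars are 95% intervals from limma and the dotted line is the median of all genes on deposited values. The PLM versus SNI estimates lie around the dotted line at -0.21 and move to around 0 when centred, while Piezo1 lies below 0 in both comparisons with JA.

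Among the HCN genes, Hcn2, the subunit with fast kinetics and strong cyclic AMP sensitivity that is found in sensory and spinal neurons, made up 97.9% of the summed HCN TPM on average (97.4% to 98.5% over the 9 samples). Hcn2 was at 203, 217 and 151 TPM in JA, at 209, 186 and 174 TPM in SNI and at 144, 145 and 166 TPM in PLM. All 3 PLM samples were below all 3 SNI samples, but JA replicate 3 lay among the PLM values. The mean was 190 TPM ± 17.8 for SNI and 152 TPM ± 12.04 for PLM (SD, n = 3), which differ by -0.32 on the log2 scale (standard error 0.09, 95% interval -0.54 to -0.10, unadjusted p = 0.0110, adjusted p = 0.0612, limma). In PLM versus SNI 2 of the 7 genes, Hcn2 and Asic2, had groups that did not overlap, where 43.5% of all genes had none. Median-centring brought the Hcn2 difference to -0.07 on the log2 scale (adjusted p = 0.670, limma) and its groups overlapped. With the stricter filter of at least 1 TPM in every sample the estimate was the same and the adjusted p was 0.0459 (limma). Leaving out 1 of the 6 samples gave log2 fold changes from -0.39 to -0.25 with adjusted p-values from 0.0674 to 0.179 (limma).

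In SNI versus JA the log2 fold change of Hcn2 was 0.01 (95% interval -0.35 to 0.37, adjusted p = 0.982, limma), and the sign turned with the scaling. In PLM versus JA it was -0.31 (95% interval -0.66 to 0.04, adjusted p = 0.473, limma). Without JA replicate 3, the lowest of the JA samples, PLM versus JA was -0.47 with an adjusted p of 0.118 (limma). Cells of several types contributed to each sample, and in bulk tissue fewer cells of a type and less RNA per cell cannot be told apart. The summed level of the 16 neuron markers was 6123 to 7761 TPM in SNI, 5320 to 6122 TPM in PLM and 3334 to 6302 TPM in JA. That of the 12 astrocyte markers was 5455 to 6597 TPM in SNI and 3007 to 3581 TPM in PLM, and 11 of the 12 fell in PLM versus SNI at an adjusted p under 0.05 (limma), 8 of them on median-centred values, where 13.6% and 0.685% of all genes tested fell. Of the 16 neuron markers, 0 passed an adjusted p under 0.05 in PLM versus SNI (limma) and 5 had no overlap, where 43.5% of all genes had none. On median-centred values 8 of the 16 were below 0 and their median was -0.009. The part of these markers in the Hcn2 values was not tested.

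Hcn4, the slowest of the subunits and the main pacemaker channel of the sinoatrial node, was at 2.36, 2.20 and 1.80 TPM in JA, at 2.98, 2.27 and 2.80 TPM in SNI and at 2.22, 2.04 and 2.68 TPM in PLM. These values overlapped in all 3 comparisons. The log2 fold changes were 0.24 in SNI versus JA, -0.15 in PLM versus SNI and 0.09 in PLM versus JA, with adjusted p-values from 0.436 to 0.842 (limma). On median-centred values every PLM sample was above every JA sample, at 1.72 to 1.95 against 1.56 to 1.69 on the centred log2 scale, and the difference of 0.21 had an adjusted p of 0.591 (limma). On that scale 2 of the 7 genes, Hcn4 and Piezo1, did not overlap between PLM and JA, where 16.4% of all genes did not. Hcn3, a subunit with weak or no response to cyclic AMP, was at 1.77, 1.04 and 1.19 TPM in JA, at 2.07, 1.5 and 1.8 TPM in SNI and at 1.04, 1.57 and 1.19 TPM in PLM. Its groups overlapped throughout, and its log2 fold changes of 0.27, -0.30 and -0.04 in SNI versus JA, PLM versus SNI and PLM versus JA had adjusted p-values from 0.217 to 0.957 (limma).

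Of the ASIC genes, Asic1, which encodes the main proton-gated subunit of central neurons, made up 60.8% of the summed ASIC TPM, Asic2 25.5%, Asic4 12.7% and Asic3 0.952%. Asic1 was at 19.3, 13.7 and 14.4 TPM in JA, at 20.3, 15.0 and 18.3 TPM in SNI and at 13.4, 14.9 and 16.0 TPM in PLM. The groups overlapped, and its log2 fold change was -0.26 in PLM versus SNI (95% interval -0.56 to 0.04, adjusted p = 0.180, limma) and -0.01 on median-centred values. In SNI versus JA it was 0.17 and in PLM versus JA -0.08, with adjusted p-values of 0.691 and 0.841 (limma). With 1 sample left out at a time, it lay between -0.37 and -0.16 in PLM versus SNI and between 0.08 and 0.32 in SNI versus JA.

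Asic2, a subunit that joins Asic1 in mixed channels of lower proton sensitivity, was at 8.65, 6.04 and 4.79 TPM in JA, at 9.59, 6.51 and 7.37 TPM in SNI and at 6.03, 6.23 and 5.99 TPM in PLM. The JA and SNI samples were spread widely while the PLM samples had an SD of 0.129 TPM (n = 3) and all lay below the SNI samples. Between PLM and SNI its log2 fold change was -0.30 (95% interval -0.63 to 0.02, adjusted p = 0.155, limma) and -0.05 on median-centred values, where the groups overlapped. In SNI versus JA it was 0.25 and in PLM versus JA -0.05, with adjusted p-values of 0.668 and 0.936 (limma). Leaving out 1 sample gave -0.41 to -0.16 in PLM versus SNI and 0.08 to 0.45 in SNI versus JA. Asic4, which forms no proton-gated channel of its own, was at 3.36, 3.12 and 3.35 TPM in JA, at 4.49, 2.83 and 3.83 TPM in SNI and at 2.77, 3.35 and 3.16 TPM in PLM. Its log2 fold changes of 0.13, -0.19 and -0.07 in SNI versus JA, PLM versus SNI and PLM versus JA had adjusted p-values from 0.392 to 0.848 (limma), and its groups overlapped in all 3. With 1 sample left out at a time, the fold change lay between 0.0087 and 0.27 in SNI versus JA and between -0.33 and -0.07 in PLM versus SNI.

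Asic3, the acid sensor best known from sensory ganglion neurons, was at 0.48, 0.23 and 0.42 TPM in JA, at 0.16, 0.12 and 0.18 TPM in SNI and at 0.14, 0.39 and 0.12 TPM in PLM. All 3 SNI samples were below all 3 JA samples, whereas the PLM samples spanned both. The difference of mean log2(TPM + 1) in SNI versus JA was -0.25 (two-sided exact permutation p = 0.1, the smallest that 3 against 3 samples can give, over 6 comparisons made for Asic3 and Piezo2). For PLM versus SNI it was 0.07 and for PLM versus JA -0.18 (exact permutation p = 0.9 and 0.2). Among the genes that entered the fits, 1.66% were lower in SNI than in JA with no overlap. On median-centred values every PLM sample of Asic3 was above every SNI sample, a difference of 0.32 (exact permutation p = 0.1), as was so for 14.1% of the genes in the fits. The sample medians that centring removes ran from 3.18 to 3.53 on the log2 scale, a span as wide as these differences. Of the 12 sensory ganglion markers, 8 loci were under 1 TPM on average, and the defining nociceptor channels Scn10a and Scn11a had means of 0.0244 and 0.0122 TPM while Mrgprd was at 0 in all 9 samples. The summed level of these markers, nearly all from Calca and Prph, which spinal neurons also express, was 85.5 to 289 TPM in JA, 204 to 328 TPM in SNI and 169 to 231 TPM in PLM. Their part in the Asic3 values was not tested.

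Piezo1 was at 4.42, 4.78 and 4.59 TPM in JA, at 3.81, 3.57 and 3.26 TPM in SNI and at 3.22, 3.45 and 3.54 TPM in PLM. Every JA sample lay above every sample of injured rats, and SNI and PLM overlapped. The JA mean was 4.60 TPM ± 0.180, against 3.55 TPM ± 0.276 for SNI and 3.40 TPM ± 0.165 for PLM (SD, n = 3). The log2 fold change was -0.30 in SNI versus JA (standard error 0.11, 95% interval -0.57 to -0.04, unadjusted p = 0.0318, adjusted p = 0.614, limma). In PLM versus JA it was -0.35 (standard error 0.10, 95% interval -0.59 to -0.10, unadjusted p = 0.0133, adjusted p = 0.355, limma). The comparisons share the JA samples. Lower with no overlap was found for 1 of the 7 genes in each, where 1.66% of all genes tested were so in SNI versus JA and 15.7% in PLM versus JA.

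The direction of Piezo1 against JA held under median-centring, where the log2 fold changes were -0.42 and -0.22 (adjusted p = 0.889 and 0.506, limma) and the groups again did not overlap, as in 6.87% and 6.93% of genes that were lower without overlap on that scale. With all 6 samples of injured rats set against the 3 JA samples, a comparison added after the values were seen, the log2 fold change of Piezo1 was -0.32 (95% interval -0.51 to -0.14, unadjusted p = 0.00366, adjusted p = 0.665, limma). In that comparison 0.806% of 15503 genes were lower with no overlap, or 125 genes, and 0 genes passed an adjusted p under 0.05, while 935 passed an unadjusted p under 0.05. In PLM versus SNI the log2 fold change of Piezo1 was -0.05 on deposited values (95% interval -0.28 to 0.19, adjusted p = 0.757, limma). On median-centred values it was 0.20 (95% interval -0.0011 to 0.41, unadjusted p = 0.0509, adjusted p = 0.296, limma) and the PLM samples all lay above the SNI samples. In that direction 14.1% of all genes had no overlap on median-centred values.

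**Figure D3:**
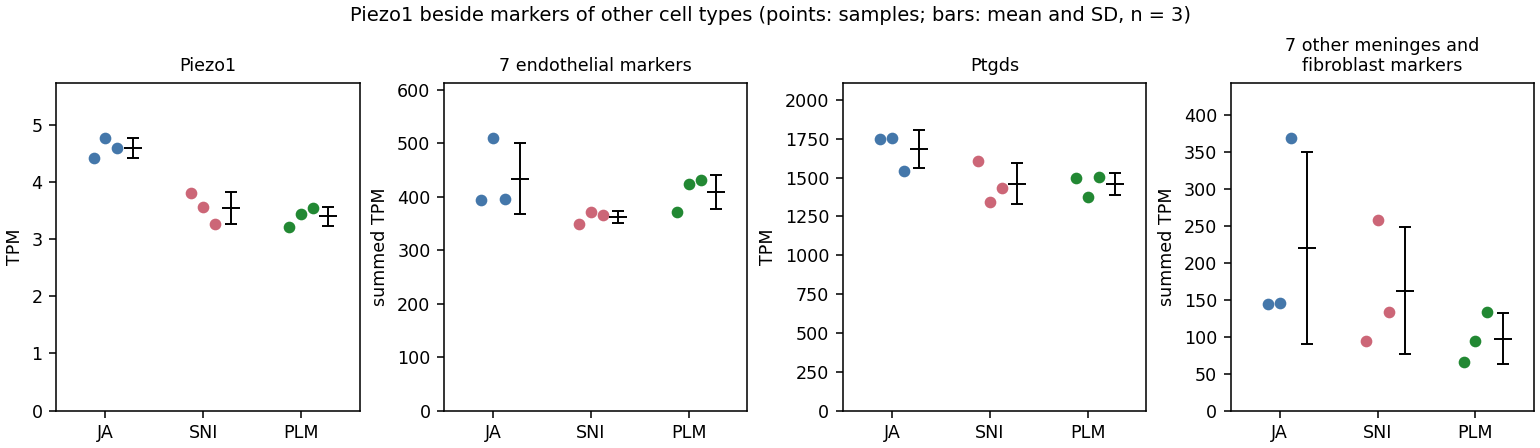
Piezo1 (TPM), the summed TPM of 7 endothelial markers, Ptgds (TPM) and the summed TPM of the 7 other markers of meninges and fibroblasts (vertical axes, from 0) in the 3 samples of each group. Points are samples and bars the mean and SD (n = 3). The JA and SNI samples are apart for Piezo1 and for the endothelial sum and overlap for Ptgds and for the 7 other markers, where JA replicate 3, at 369 TPM, stands above the rest. The PLM samples lie below the JA samples for Piezo1, Ptgds and the 7 other markers. The sum of Ptgds and the 7 other markers, not drawn, was 1892 to 1913 TPM in JA and lower, at 1568 to 1699 TPM, in SNI.

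Markers of other cell types are given beside Piezo1 for the lists whose sum had SNI or PLM samples apart from JA on the same side as Piezo1. The oligodendrocyte sum was 49380 to 56940 TPM in JA, 46700 to 48990 TPM in SNI and 50450 to 51450 TPM in PLM, so that SNI lay below JA while PLM overlapped it. Most of it came from Mbp, a myelin protein, at 34388 to 39893 TPM in JA and 31362 to 33706 TPM in SNI, the only 1 of the 10 oligodendrocyte markers with SNI and JA samples without overlap on deposited values. On median-centred values all 10 had a log2 fold change below 0 in SNI versus JA (median -0.21) and 6 had no overlap, where 6.87% of all genes tested were lower with no overlap. The endothelial sum was 394 to 511 TPM in JA, 349 to 371 TPM in SNI and 373 to 432 TPM in PLM, so that SNI lay below JA while PLM overlapped it. Of the 7 endothelial markers, 1 (Cldn5, a tight junction protein) had SNI and JA samples without overlap, as did 13.8% of all genes tested. The meninges and fibroblast sum was 1892 to 1913 TPM in JA, 1568 to 1699 TPM in SNI and 1469 to 1637 TPM in PLM. In that sum all SNI and all PLM samples lay below all JA samples, as for Piezo1. Most of it was Ptgds. Ptgds, a prostaglandin synthase of the leptomeninges that oligodendrocytes also express, was at 1544 to 1757 TPM in JA, 1342 to 1604 TPM in SNI and 1375 to 1504 TPM in PLM. The 7 other markers of meninges and fibroblasts summed to 143 to 369 TPM in JA, 94.2 to 258 TPM in SNI and 65.5 to 133 TPM in PLM. Taken separately, SNI and JA overlapped in each of these parts of the sum, while all PLM samples lay below all JA samples in both. Of the 7 meninges and fibroblast markers tested, 0 had SNI and JA samples without overlap, and 4 had PLM and JA samples without overlap, as did 17.7% of all genes tested. On median-centred values 1 of the 7 was lower without overlap in each comparison, as were 6.87% and 6.93% of all genes tested. The astrocyte sum was 4128 to 6498 TPM in JA, above the 3007 to 3581 TPM in PLM and overlapping SNI, and 6 of the 12 astrocyte markers were lower in PLM than in JA without overlap, as were 15.7% of all genes tested. No marker of these lists passed an adjusted p under 0.05 in SNI versus JA or PLM versus JA (limma). Their part in the Piezo1 values was not tested. Piezo2 made up 4.91% of the summed Piezo TPM. It was at 0.19, 0.10 and 0.33 TPM in JA, at 0.31, 0.23 and 0.14 TPM in SNI and at 0.11, 0.21 and 0.17 TPM in PLM. Its groups overlapped in every comparison on deposited values, with differences of mean log2(TPM + 1) between -0.08 and 0.03 (exact permutation p from 0.4 to 0.8). On median-centred values its PLM samples all lay above its SNI samples, a difference of 0.17 (exact permutation p = 0.1), which as for Asic3 is smaller than the span of the sample medians, and 14.1% of the genes in the fits had no overlap in that direction.

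Ratios of 2 genes of a family within 1 sample do not depend on how the sample was scaled. Over 6 such ratios and 3 comparisons, 3 of the 18 differences had groups without overlap. Among 14935 loci averaging at least 1 TPM and never at 0, the ratio to Hcn2 was higher without overlap for 9.08% in SNI versus JA and for 13% in PLM versus JA, and the ratio to Asic1 was lower without overlap for 2.1% in SNI versus JA. The log2 ratio of Hcn4 to Hcn2 was -6.43, -6.62 and -6.39 in JA, -6.13, -6.36 and -5.96 in SNI and -6.02, -6.16 and -5.95 in PLM. Every sample of injured rats had more Hcn4 relative to Hcn2 than every JA sample. The difference was 0.33 in SNI versus JA and 0.44 in PLM versus JA, which share the JA samples (exact permutation p = 0.1 in each, the smallest possible with 3 against 3). Hcn2 nevertheless remained at least 97.4% of the HCN sum in each sample. The log2 ratio of Asic3 to Asic1 was -5.33, -5.90 and -5.10 in JA and -6.99, -6.97 and -6.67 in SNI, a difference of -1.43 without overlap (exact permutation p = 0.1). In PLM it was -6.58, -5.25 and -7.05, and the PLM samples overlapped both other groups. With a pseudocount of 0.1 the difference in SNI versus JA was -1.06, again without overlap. Asic3 averaged below 1 TPM, so it is not among the loci of the 2.1% share. The remaining 15 differences had overlapping groups, among them those of Asic2 to Asic1 and Asic4 to Asic1 in all comparisons, whose sizes were at most 0.11. Adjusted over 18 differences no p-value could pass 0.05, since the smallest possible is 0.1.

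**Figure D4:**
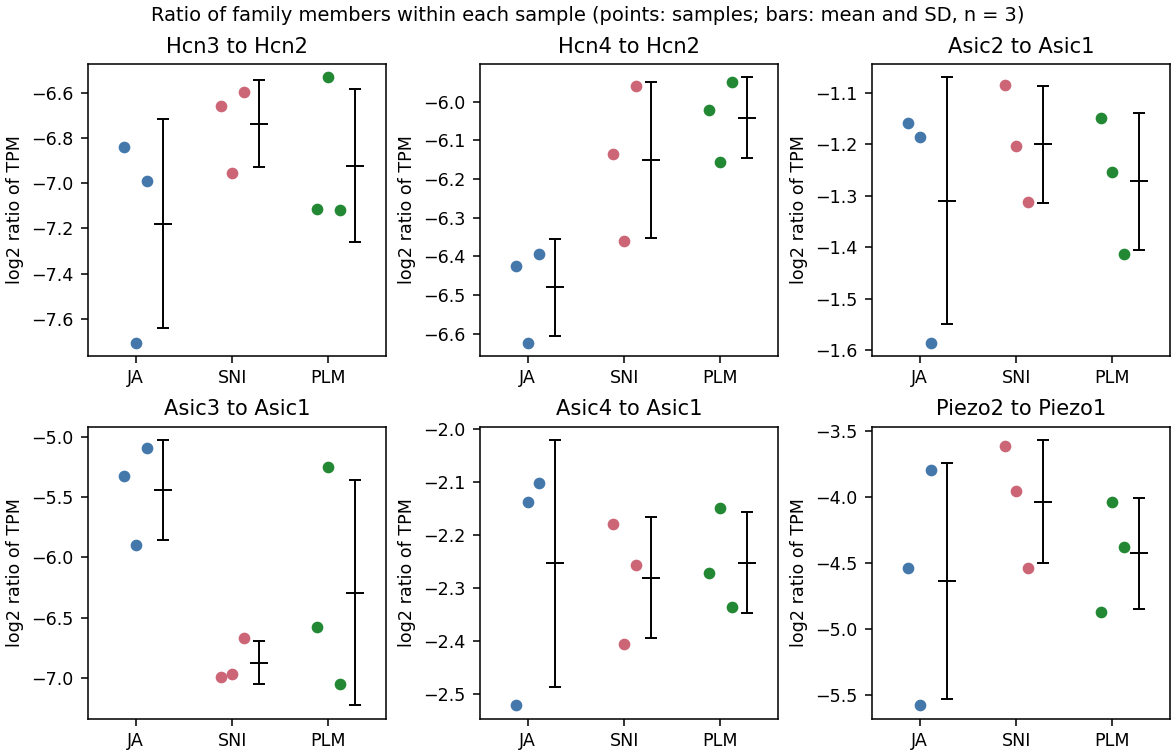
Log2 ratio of TPM of 2 genes of a family in the same sample (vertical axis, with its own range in each panel that does not start at 0) for JA, SNI and PLM. Points are samples and bars the mean and SD (n = 3). In the panel of Hcn4 to Hcn2 the JA samples, at -6.39 or lower, lie below the 6 samples of injured rats, at -6.36 or higher, and in that of Asic3 to Asic1 the SNI samples lie below the JA samples.

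Genes whose products bind or regulate these channels were followed as lists. In PLM versus SNI, where 13.6% of all genes tested fell at an adjusted p under 0.05 (limma), 4 of 13 HCN partners and 6 of 23 genes of cyclic AMP synthesis and breakdown fell. So did 3 of 12 relatives of the epithelial sodium channel and ASIC partners, 1 of 5 other proton sensors, 1 of 6 Piezo partners and 1 of 9 other mechanically gated channels, while the 1 cyclic nucleotide-gated channel tested did not pass. None of these lists had a gene that rose at an adjusted p under 0.05 (limma). The list medians, from -0.26 to -0.35 where at least 5 genes were tested, stood beside the median of -0.21 for all genes. None of these calls was left on median-centred values, and 0 genes of these lists passed in SNI versus JA or PLM versus JA.

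Of the HCN partners, Apba2, an adaptor of synaptic scaffolds, had 32.1 TPM ± 3.87 with saline and 22.6 TPM ± 0.242 with the drugs (SD, n = 3) and fell by 0.48 on the log2 scale (adjusted p = 0.0294, limma). Magi2, a synaptic scaffold, fell by 0.51 and Kctd3, an accessory protein of HCN3, fell by 0.31 on the log2 scale (adjusted p = 0.0351 and 0.0343, limma). Pex5l, the TRIP8b subunit that controls HCN trafficking and its response to cyclic AMP, had means of 49.6 TPM ± 6.16 (SNI) and 40.4 TPM ± 1.65 (PLM; SD, n = 3) and did not pass (adjusted p = 0.0994, limma). The phosphodiesterases Pde4b and Pde7b, which break down cyclic AMP, fell by 0.46 and 0.48, and the adenylyl cyclase Adcy2, which makes it, fell by 0.37 (adjusted p = 0.0335, 0.0380 and 0.0363, limma). Enzymes on both sides of cyclic AMP turnover were among the genes that fell.

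Slc9a3r1, a PDZ scaffold at the membrane, had 32.2 TPM ± 5.83 with saline and 20.3 TPM ± 1.60 with the drugs (SD, n = 3) and fell by 0.63 (adjusted p = 0.0343, limma). Stom, the stomatin that inhibits ASIC3 currents, fell by 0.37 and Whrn, the whirlin scaffold, by 0.31 (adjusted p = 0.0466 and 0.0418, limma). Pacc1, the proton-activated chloride channel, fell by 0.45 (adjusted p = 0.0302, limma). Atp2a2, the SERCA2 calcium pump that binds Piezo1, fell by 0.37 and Tmem63b, an osmotically and mechanically activated channel, by 0.39 (adjusted p = 0.0366 and 0.0380, limma). Mdfic, an auxiliary subunit of Piezo channels, stood at -0.24 and did not pass (adjusted p = 0.232, limma). All 12 genes named here as falling lost the call on median-centred values and in at least 1 fit with a sample left out.

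Genes with the most similar pattern were ranked by Pearson's r of median-centred log2 values over the 9 samples among 12385 loci, as a description only, since the highest of so many values over 9 samples is high by selection. Asic1 was most like Rap1gap (r = 0.992), Tmem25 (r = 0.986) and Tmem18 (r = 0.952). Asic2 was most like Tnpo2 (r = 0.984), Cep170b (r = 0.977) and Arhgef11 (r = 0.968). For Hcn2 the nearest were Rilp (r = 0.960), Dnm2 (r = 0.958) and Ski (r = 0.945), and for Piezo1 they were Cyba (r = 0.972), Bet1l (r = 0.959) and Cdk4 (r = 0.946). Hcn3 was nearest to Slc2a6 (r = 0.968), Hcn4 to Mrps2 (r = 0.933) and Asic4 to Eif2b4 (r = 0.944). Between the 7 genes themselves the highest values were those of Hcn3 with Asic1 (r = 0.767) and Asic1 with Asic2 (r = 0.747), and the lowest that of Hcn3 with Piezo1 (r = -0.533). All these values come from the same 9 libraries, whose scaling the genes share.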

How the data were processed

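RNA from lumbar spinal cord of 9 rats, 3 in each of JA, SNI and PLM, was analysed from 1 deposited table. Per the methods and processing notes, the authors trimmed reads (fastp 0.19.5), mapped them with HISAT2 and computed expression with StringTie. The deposited values are TPM, scaled by the authors for gene length, with totals of 999999.6 to 1000000.4 in each sample and no read depth. The processing notes name the human build GRCh38.p13, while the table carries rat Ensembl identifiers, so no coordinates were taken from it.

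Groups followed the sample titles. Each pair of groups was fitted with limma 3.58.1 (R 4.3.3, variance trend and no covariates) to log2(TPM + 1). Loci averaging under 1 TPM in a fit were left out, and Benjamini-Hochberg adjustment ran over all loci tested. The calling was tested on simulated data. Asic3, Piezo2 and the ratios were compared with two-sided exact permutation tests (scipy 1.17.1). Beyond the 9 genes, the genes named were up to 3 per list with the lowest p-values at an adjusted p under 0.05 and no overlap between groups, the 3 most alike, and, chosen after their values were seen, Pex5l, Mdfic, Ptgds, Cldn5, Calca, Prph, Scn10a, Scn11a and Mrgprd. The genes, the lists and the tests were chosen with earlier results of these data known, so none is independent support. The lists were written from general knowledge. Alternatives were other filters and a pseudocount of 0.1, median-centring, quantile normalization, rescaling without mitochondrial genes, 1 fit to all samples, a replicate block and leaving out each sample.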

Additional observations from a re-analysis of the deposited data

How the results depend on the processing

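No member of the 3 families passed the adjusted threshold under any alternative run except Hcn2 in PLM versus SNI with at least 1 TPM in every sample, where 1 gene was called (log2 fold change -0.32, adjusted p = 0.0459, limma), with fewer genes tested. Signs of small differences turned with the scaling, by median-centring and by quantile normalization in this order. In PLM versus SNI, Hcn4 became 0.0949 and 0.0445, Asic4 0.056 and 0.0316, and Piezo1 0.2022 and 0.1804. In SNI versus JA, Hcn2 became -0.1117 and -0.1062. In PLM versus JA, Asic4 became 0.0587 and 0.0466, Hcn3 0.0879 and 0.0392, Asic2 0.075 and 0.0767, and Asic1 0.0404 and 0.0314. Rescaling without mitochondrial genes gave 0.0747 for Piezo1 in PLM versus SNI, -0.0805 for Hcn2 in SNI versus JA and 0.0026 for Asic2 in PLM versus JA. With all 6 samples of injured rats against JA, added after the data were seen, Hcn2 was -0.1507, and -0.1492 when centred. Piezo2 turned on centring to 0.1748 in PLM versus SNI, -0.0976 in SNI versus JA and 0.0772 in PLM versus JA.

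Leaving out 1 sample turned the sign of some differences. On the log2 scale these ranged, in PLM versus JA, from -0.1709 to 0.0605 for Asic1, -0.2188 to 0.1497 for Asic2, -0.13 to 0.094 for Hcn3 and -0.1138 to 0.0231 for Piezo2. In SNI versus JA they ranged from -0.1466 to 0.1119 for Hcn2 and -0.0388 to 0.0982 for Piezo2, and in PLM versus SNI from -0.0292 to 0.1266 for Asic3. The ratio of Asic2 to Asic1 ranged from -0.1007 to 0.1129 in PLM versus JA and -0.0291 to 0.1845 in SNI versus JA. That of Asic4 to Asic1 ranged from -0.1327 to 0.078 in PLM versus JA, -0.034 to 0.0793 in PLM versus SNI and -0.1614 to 0.0492 in SNI versus JA. In PLM versus JA, Hcn3 to Hcn2 ranged from -0.0076 to 0.4241 and Piezo2 to Piezo1 from -0.261 to 0.6295. The cause was not tested. Piezo1 stayed below JA in each of these fits, from -0.3425 to -0.255 in SNI versus JA and from -0.369 to -0.3158 in PLM versus JA.

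With a replicate block (the replicate number as a term), 0 of the 7 genes were called in PLM versus SNI, Hcn2 at -0.321 had an adjusted p of 0.166 (limma), and 152 of all genes in place of 2148 were called. The same block on median-centred values gave the centred fold changes above. Same-numbered samples did not deviate together in every pair (r = 0.032, -0.019 and -0.007 for PLM and SNI, 0.123, -0.051 and 0.056 for SNI and JA, -0.025, -0.009 and 0.105 for PLM and JA). No pairing by number was seen, and there are too few pairs to settle it. No counting error can be given for TPM.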
